A study of Rattus norvegicus with 9 samples.

Results

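The p53 target genes described here are 10 genes, chosen by name, that the tumour suppressor p53 is known to induce in growth arrest and stress: Cdkn1a, Mdm2, Ccng1, Gadd45a, Btg2, Phlda3, Tp53inp1, Sesn1, Sesn2 and Zmat3. All 10 were found by symbol among the 40154 gene rows of each library. Whole liver RNA was sequenced from wild-type Sprague-Dawley rats 5 months of age, in 3 groups of 3 libraries. Normal livers came from rats given neither carbon tetrachloride (CCl4, a hepatotoxin that causes cirrhosis) nor cells. The PBS group had CCl4 cirrhosis and an injection of phosphate-buffered saline. The HepLPC group had CCl4 cirrhosis and an injection of rat HepLPCs, liver progenitor-like cells derived from hepatocytes. Both injected groups share the cirrhosis, and the normal group had no injection, so injury and injection cannot be told apart in any comparison with normal livers. Whether the 3 libraries of a group are 3 animals is not stated in the labels, and the p-values refer to the spread between libraries, part of which may be technical.

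p53 is a transcription factor that is kept scarce by the ubiquitin ligase Mdm2 and is stabilised when DNA is damaged or cells are stressed. It then switches on genes that halt the cell cycle, repair DNA, restrain growth signals or trigger cell death, and Mdm2 itself, which closes a negative feedback loop. In the liver Cdkn1a, the cyclin-dependent kinase inhibitor p21, is known for restraining hepatocyte division after injury. Many of these genes also answer to other regulators, such as glucocorticoids, FOXO factors and the integrated stress response, so their RNA levels are not a direct measure of p53 activity.

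p53 binds DNA as a tetramer to a pair of decamers, each with the p53 decamer consensus. RefSeq promoter windows (rat assembly GRCr8, the 250 bases before the annotated start) were found for 8 of the 10 members and not for Tp53inp1 and Zmat3. A perfect p53 decamer, searched on both strands, was found in 4 of the 8, against 6.64% of all 33469 windows of that length. A pair of decamers 0 to 13 bases apart, with at most 1 mismatch in its 20 letters, was found in 3 of the 8 (Cdkn1a, Ccng1 and Gadd45a), against 0.801% of all windows. The stretches that hold the 4 decamers are shown, read 5′ to 3′ on the gene's strand, with the decamer in capitals. They include Cdkn1a and Gadd45a, the members with the lowest HepLPC against normal changes (-1.18 and -0.77), but also Ccng1 (-0.52) and Sesn1 (-0.26). Members whose windows held no perfect decamer were at -0.56 (Btg2), -0.48 (Phlda3), -0.45 (Mdm2) and 0.11 (Sesn2). Tp53inp1, at -0.63, had no window.
Cdkn1a: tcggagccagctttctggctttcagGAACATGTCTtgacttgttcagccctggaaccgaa
Ccng1: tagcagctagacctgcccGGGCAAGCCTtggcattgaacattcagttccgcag
Gadd45a: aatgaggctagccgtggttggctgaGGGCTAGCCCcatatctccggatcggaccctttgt
Sesn1: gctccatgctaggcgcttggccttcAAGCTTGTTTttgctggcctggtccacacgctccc
The Cdkn1a stretch lies at chr20:7150706-7150765 on the plus strand, and its decamer starts 201 bases before the annotated start. The Ccng1 stretch lies at chr10:25685074-25685126 on the minus strand (232 bases before the start), the Gadd45a stretch at chr4:97486813-97486872 on the minus strand (48 bases) and the Sesn1 stretch at chr20:46948522-46948581 on the plus strand (172 bases). In the Cdkn1a and Ccng1 stretches the pair was contiguous, with a spacer of 0 bases and 1 mismatch, and in Gadd45a the spacer was 11 bases.

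The windows also differed in other common promoter letters, again searched on both strands. TATAAA was found in 0 of the 8 members' windows and in 12.9% of all windows, GGGCGG in 7 of the 8 (30.5% of all), all but Cdkn1a, and CCAAT in 6 of the 8 (34.0%), all but Cdkn1a and Phlda3. The octamer ATTTGCAT was found in Gadd45a alone of the 8 (1.56% of all) and the palindrome TGACGTCA in Btg2 alone (1.59%). These are matches of letters in short windows, and nothing was measured on binding. Sites outside the 250 bases were not searched, so a window without a decamer does not show that a gene lacks a p53 site.

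Levels were deposited as RPKM, which divides reads by gene length and by library size. The totals behind that scaling, recovered from the values, ran from 17.4 to 21.8 M reads per library. The members were measured with 82 to 1531 reads per library, the fewest for Zmat3 (82 to 207 reads). PBS replicate 1 and HepLPC replicate 2 stood apart from the other libraries: across genes, the longer the gene, the lower it was against its group's mean (Spearman correlation -0.56 and -0.53, against -0.16 to 0.42 in the other 7; genes are not independent replicates). The members' medians, and the counts called, are therefore also given without both. The summed level of 6 hepatocyte markers was 65641 to 86485 RPKM in the normal group, 61743 to 69212 RPKM in the PBS group and 69372 to 83698 RPKM in the HepLPC group. A sum does not show each marker: in PBS against normal livers their log2 changes ran from -0.57 to 1.22, and none passed. Changes are differences of mean log2(RPKM + 1) with their standard error (SE) and an adjusted p from limma over the 11124 genes that reached 1 RPKM in 3 libraries. Of the members 9 passed that filter, with at least 3.64 RPKM in every library, and Zmat3 did not.

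**Figure D1:**
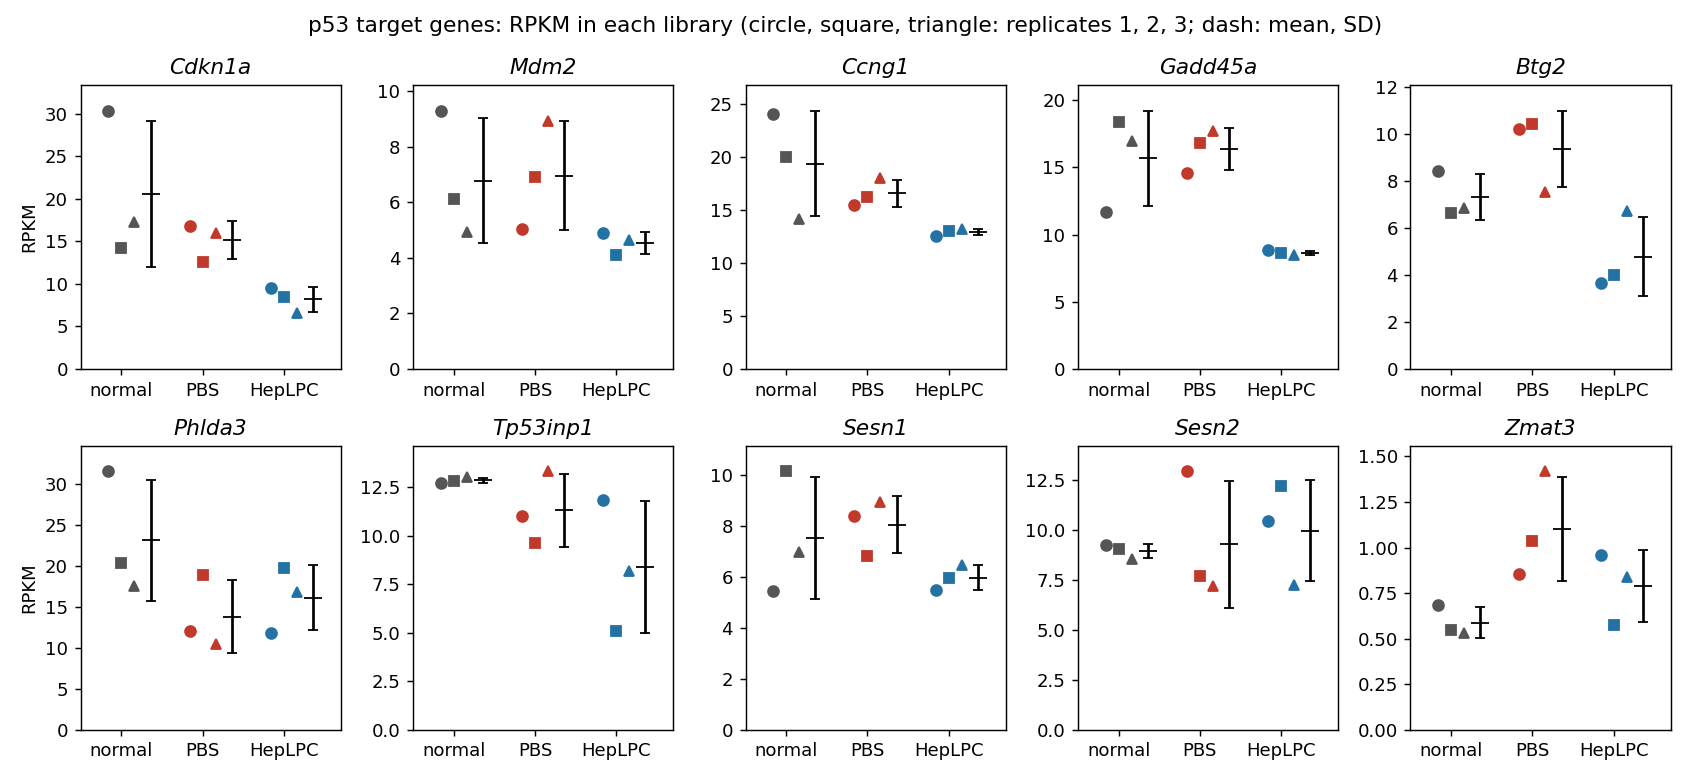
RPKM (vertical axis, from 0) of each of the 10 members in the normal (grey), PBS (red) and HepLPC (blue) libraries; circles, squares and triangles are replicates 1, 2 and 3, and the black dash and bar are the mean and SD of 3. The HepLPC libraries sit below every PBS library for Cdkn1a, Mdm2, Ccng1, Gadd45a, Btg2 and Sesn1.

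Of the tested members, Gadd45a passed the test against PBS livers and none passed against normal livers. Cdkn1a was at 30.3, 14.2 and 17.2 RPKM in the normal libraries, 16.8, 12.6 and 15.96 RPKM in the PBS libraries and 9.48, 8.39 and 6.61 RPKM in the HepLPC libraries. Every HepLPC library was thus below each of the other 6. The mean in HepLPC livers was 0.396 of the normal mean and 0.540 of the PBS mean. On the log2 scale HepLPC livers differed from normal by -1.18 (SE 0.25, limma adjusted p = 0.195) and from PBS by -0.82 (SE 0.25, adjusted p = 0.137), and neither passed. PBS and normal livers overlapped and differed by -0.36 (SE 0.25, adjusted p = 0.404). Without normal replicate 1, the library with the highest level, the difference from normal was -0.87 (adjusted p = 0.36), and without both libraries that stood apart it was -1.20 (adjusted p = 0.203).

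Gadd45a, a small acidic stress protein that binds PCNA and p21 and acts in growth arrest and DNA repair, was the member that passed. It was at 11.7, 18.4 and 16.9 RPKM in normal, 14.6, 16.8 and 17.7 RPKM in PBS and 8.83, 8.60 and 8.48 RPKM in HepLPC libraries. The HepLPC libraries lay within a narrow band below all others. Gadd45a fell by 0.85 on the log2 scale after HepLPC injection compared with PBS (SE 0.16, limma adjusted p = 0.0287), to 0.528 of the PBS mean. Against normal it differed by -0.77 (SE 0.16, adjusted p = 0.195), and PBS against normal by 0.08 (SE 0.16, adjusted p = 0.798). The call against PBS was lost in 8 of 15 alternatives, over which the change ran from -0.92 to -0.63 and the adjusted p from 0.0167 to 0.139. It was lost without normal replicate 3 (adjusted p = 0.0507), PBS replicate 2 (0.0773), PBS replicate 3 (0.126), HepLPC replicate 1 (0.0902), HepLPC replicate 2 (0.062) or HepLPC replicate 3 (0.0678), without both libraries that stood apart (0.0512) and after rescaling by the median of ratios (0.139).

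Btg2, an antiproliferative cofactor of the machinery that shortens mRNA tails, was at 8.44, 6.65 and 6.86 RPKM in normal, 10.2, 10.4 and 7.52 RPKM in PBS and 3.64, 3.98 and 6.73 RPKM in HepLPC libraries. Its HepLPC values lay below all PBS values, and HepLPC replicate 3 lay inside the normal range. The difference from PBS was -0.87 (SE 0.21, adjusted p = 0.0596), and without HepLPC replicate 3 it was -1.098 (adjusted p = 0.0203). Ccng1, cyclin G1, a long-known p53 target that acts on Mdm2, was at 24.01, 20.01 and 14.1 RPKM in normal, 15.5, 16.2 and 18.0 RPKM in PBS and 12.6, 13.04 and 13.2 RPKM in HepLPC libraries. Here too the HepLPC libraries were the lowest, close together and below each of the other 6. Ccng1 differed by -0.52 from normal (SE 0.17, adjusted p = 0.386) and by -0.33 from PBS (SE 0.17, adjusted p = 0.395).

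Mdm2, which sits in the feedback loop, was at 9.30, 6.10 and 4.95 RPKM in normal, 5.03, 6.92 and 8.95 RPKM in PBS and 4.89, 4.11 and 4.63 RPKM in HepLPC libraries. The HepLPC values were below all the others, but by a narrow margin from the lowest normal and PBS libraries. The differences were -0.45 from normal (SE 0.23, adjusted p = 0.604) and -0.50 from PBS (SE 0.23, adjusted p = 0.332). They were -0.23 from normal without normal replicate 1 (adjusted p = 0.942) and -0.32 from PBS without PBS replicate 3 (adjusted p = 0.822). Mdm4, the relative of Mdm2 that masks p53, was at 6.04 ± 1.05, 4.78 ± 1.19 and 4.39 ± 1.52 RPKM in the normal, PBS and HepLPC groups (SD, n = 3), and passed in no comparison (limma adjusted p = 0.471, 0.814 and 0.669 for PBS against normal, HepLPC against PBS and HepLPC against normal).

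The remaining members were less uniform. Tp53inp1, a stress protein that enhances p53 activity and autophagy, was at 12.7, 12.8 and 12.99 RPKM in normal, 11.0, 9.60 and 13.3 RPKM in PBS and 11.9, 5.06 and 8.16 RPKM in HepLPC libraries. The HepLPC values lay below the tight normal values but spread widely, with the lowest in HepLPC replicate 2, which stood apart by gene length (difference from normal -0.63, SE 0.24, adjusted p = 0.469). Without that library the difference was -0.35 (adjusted p = 0.579). Phlda3, which dampens AKT signalling at the membrane, was at 31.5, 20.3 and 17.5 RPKM in normal, 12.1, 18.8 and 10.5 RPKM in PBS and 11.8, 19.7 and 16.9 RPKM in HepLPC libraries. It was the tested member with the lowest PBS against normal change, -0.70 (SE 0.28, adjusted p = 0.137), and its PBS and HepLPC values overlapped. Without normal replicate 1 that change was -0.46 (adjusted p = 0.353).

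The sestrins restrain the growth kinase complex mTORC1 under stress. Sesn1 was at 5.45, 10.1 and 6.98 RPKM in normal, 8.38, 6.80 and 8.94 RPKM in PBS and 5.49, 5.95 and 6.46 RPKM in HepLPC libraries. Its HepLPC values lay below the PBS values and inside the normal range (difference from PBS -0.37, SE 0.19, adjusted p = 0.398). Sesn2, which is also induced by ATF4 and NRF2, was at 9.25, 9.04 and 8.56 RPKM in normal, 12.9, 7.71 and 7.17 RPKM in PBS and 10.4, 12.2 and 7.23 RPKM in HepLPC libraries, with all groups overlapping. The difference between HepLPC and PBS livers was 0.11, with a 95% interval from -0.40 to 0.62. Zmat3, a zinc finger protein that binds RNA, was by far the lowest per length, at 0.685, 0.546 and 0.529 RPKM in normal, 0.857, 1.04 and 1.42 RPKM in PBS and 0.959, 0.573 and 0.839 RPKM in HepLPC libraries. It was the member whose PBS values lay above all normal values. With no filter on low values Zmat3 differed by 0.40 between PBS and normal livers (adjusted p = 0.137).

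**Figure D2:**
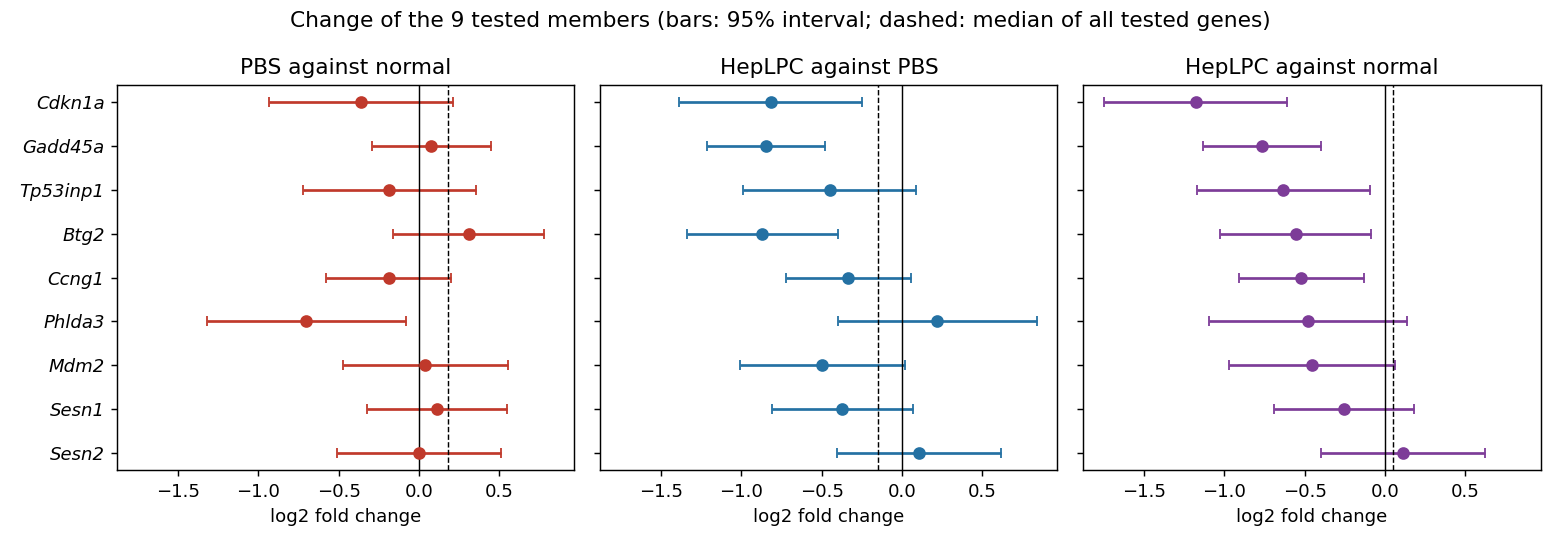
Difference of mean log2(RPKM + 1) (horizontal axis) for the 9 tested members in the 3 comparisons, with limma's 95% interval as bars, a solid line at 0 and a dashed line at the median of all tested genes (0.18, -0.14 and 0.05). In HepLPC against normal livers 8 of the 9 points lie below 0, from -1.18 for Cdkn1a to -0.26 for Sesn1, and Sesn2 lies at 0.11.

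Between PBS and normal livers no member passed, a count of 0 of 9 with limma, while 11.3% of all tested genes were called. At an unadjusted p under 0.05 the count was 1 of 9 (Phlda3), against 27.3% of all tested genes. It was 0 without normal replicate 1, PBS replicate 1 or PBS replicate 3, and 0 without both libraries that stood apart. It was 2 without normal replicate 3 and 3 after rescaling by the median of ratios. The groups did not overlap for 0 of the 9, against 37.7% of all. The members' median change was 0.00 and that of all tested genes 0.18. Rescaling by the median of ratios moved the median of all genes to -0.04 and the members' median to -0.25, and the number of members with a negative change from 4 to 8 of 9, so the members' direction in this comparison depends on the scale. Without both libraries that stood apart the members' median was -0.14, the count of members called was still 0, and 3168 genes were called in all, against 1262 with them. Of the 1262, 1157 were higher and 105 lower, and after rescaling 530 were higher and 276 lower.

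Between HepLPC and PBS livers 1 of 9 members was called, Gadd45a, lower, where 3.07% of all tested genes were called and 2.93% were called lower. At an unadjusted p under 0.05 there were 3 (Cdkn1a, Gadd45a and Btg2), against 16.1% of all. The count was 4 without normal replicate 1 or 2, PBS replicate 1 or HepLPC replicate 1. It was 5 without normal replicate 3 and 6 in a fit of the 2 groups alone. The share over all genes was not counted in these settings. In 6 of 9 members all HepLPC values lay below all PBS values, against 15.6% of all tested genes, and in 0 of 9 above (2.79% of all). The median change was -0.45 for the members and -0.14 for all tested genes. After rescaling these medians were -0.24 and 0.04, with 7 of 9 members lower both before and after. Without both libraries that stood apart 0 members were called (3 at an unadjusted p under 0.05), the members' median was -0.38 and 7 of 9 were lower.

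Between HepLPC and normal livers no member passed (0 of 9 with limma, against 0.0809% of all tested genes, 9 genes in all). At an unadjusted p under 0.05, 5 of 9 members were lower (Cdkn1a, Gadd45a, Ccng1, Btg2 and Tp53inp1), against 1.98% of all tested genes. That count was 3 without normal replicate 1, without HepLPC replicate 2 and without both libraries that stood apart. It was 4 without normal replicate 2 or HepLPC replicate 1, and 6 after rescaling by the median of ratios. In 5 of 9 members all HepLPC values lay below all normal values (Cdkn1a, Gadd45a, Ccng1, Mdm2 and Tp53inp1), against 3.51% of all. The median change was -0.52 for the members and 0.05 for all tested genes. It was -0.57 after rescaling and -0.47 without both libraries that stood apart, with 8 and 9 of 9 members lower and 0 called in both cases. Of all 11124 changes, 0.261% were lower than that of Cdkn1a, 0.953% lower than that of Gadd45a and 1.47% lower than that of Tp53inp1. The comparisons share their libraries, so the position of the HepLPC livers below PBS and below normal is not 2 independent results.

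**Figure D3:**
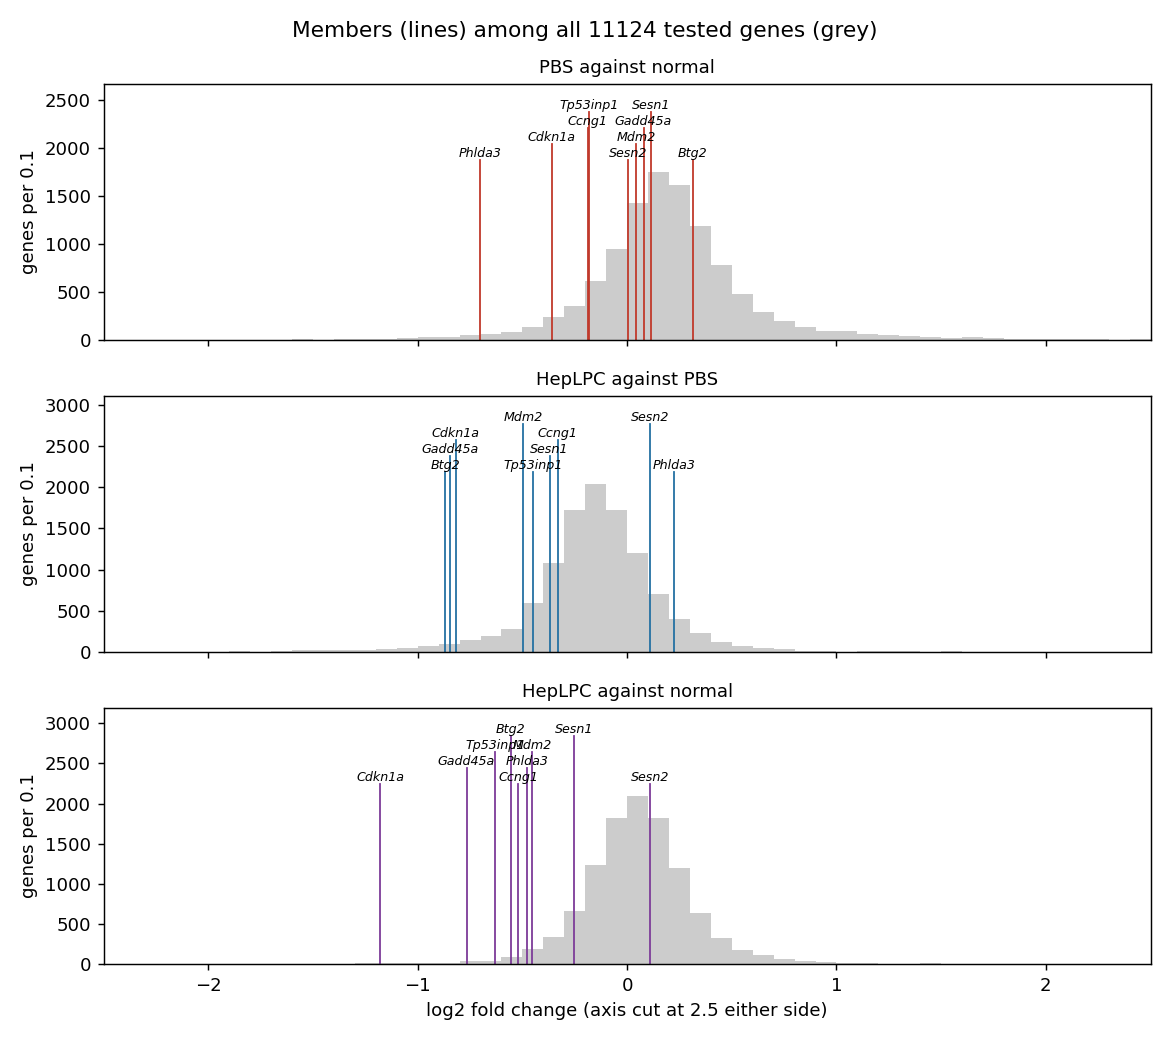
Number of genes (vertical axis, per 0.1 of log2 fold change) by change in each comparison for all tested genes (grey), with a labelled line at each of the 9 tested members. In PBS against normal livers 8 of the 9 members lie below the median of all genes (members' median 0.00 against 0.18), and they sit mostly in the lower tail in HepLPC against normal livers (-0.52 against 0.05).

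The median difference of the 9 tested members from their normal mean was -0.56, -0.57 and -0.43 in HepLPC replicates 1, 2 and 3, and -0.20, -0.19 and 0.04 in the PBS replicates. Normal replicate 1 held the highest normal value for 7 of the 10 members, Cdkn1a, Mdm2, Ccng1, Btg2, Phlda3, Sesn2 and Zmat3, and for 48.3% of all tested genes. Without that library the members' median against normal was -0.44 in HepLPC livers. In whole liver, fewer cells of a type and less RNA per cell cannot be told apart. The summed level of 6 cholangiocyte markers was 7.56 to 9.92 RPKM in normal, 37.8 to 110 RPKM after PBS and 9.30 to 15.8 RPKM after HepLPCs, and that of 6 stellate cell and myofibroblast markers 14.0 to 16.2, 21.9 to 40.2 and 17.0 to 23.7 RPKM. The 6 macrophage markers summed to 100 to 137, 159 to 212 and 117 to 172 RPKM, and the 4 mast cell markers to 2.18 to 3.62, 18.9 to 44.4 and 12.2 to 27.4 RPKM. The 3 red blood cell markers summed to 1291 to 3692, 598 to 1934 and 1261 to 2149 RPKM, overlapping between groups, with the highest sum in normal replicate 1. None of these markers was at 0 in all libraries of a group, and their part in the HepLPC against PBS differences was not tested. Hepatocyte marker sums overlapped between HepLPC and normal livers.

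Per length, the order of mean levels in normal livers was Phlda3 (23.1 ± 7.41 RPKM), Cdkn1a (20.6 ± 8.57), Ccng1 (19.4 ± 4.98), Gadd45a (15.7 ± 3.55), Tp53inp1 (12.8 ± 0.136), Sesn2 (8.95 ± 0.355), Sesn1 (7.52 ± 2.39), Btg2 (7.32 ± 0.98), Mdm2 (6.78 ± 2.25) and Zmat3 (0.587 ± 0.0856; all SD, n = 3). Neighbours from Phlda3 to Tp53inp1 and from Sesn2 to Mdm2 differed by less than the larger of their SDs. In HepLPC livers Cdkn1a was at 8.16 ± 1.449 RPKM, beside Gadd45a (8.64 ± 0.18) and Tp53inp1 (8.36 ± 3.40) and below Phlda3 (16.1 ± 3.997), Ccng1 (12.9 ± 0.321) and Sesn2 (9.95 ± 2.52).

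Among the members' paralogs, of 11 tested genes 3 rose in PBS against normal livers, beside 11.3% of all tested genes. None passed in HepLPC against PBS or HepLPC against normal livers (0 with limma, beside 3.07% and 0.0809% of all). At an unadjusted p under 0.05 there were 3 against PBS, beside 16.1% of all. There was 1 against normal, which cannot be set against all genes, since their share was not counted there. The risers were Btg3, a relative of Btg2 (1.38, SE 0.19, limma adjusted p = 0.00199), Phlda1 (1.01, SE 0.19, adjusted p = 0.0104) and Gadd45b, which responds to cytokines (0.62, SE 0.17, adjusted p = 0.047). Gadd45b was at 0.942, 1.22 and 1.27 RPKM in normal, 3.05, 1.57 and 2.39 RPKM in PBS and 1.14, 1.37 and 1.26 RPKM in HepLPC libraries, so its HepLPC values lay inside the normal range or just above it, and those of Gadd45a below it. The third of this family, Gadd45g, varied most between libraries of 1 group: it was at 7.20, 41.3 and 32.2 RPKM in normal, 60.1, 35.2 and 9.99 RPKM in PBS and 7.33, 58.1 and 24.4 RPKM in HepLPC libraries. Its highest PBS and HepLPC values were in the libraries that stood apart by gene length. Ccng2 (10.9 ± 2.14, 9.84 ± 1.89 and 9.36 ± 3.44 RPKM in normal, PBS and HepLPC), Btg1 (143 ± 19.2, 107 ± 38.9 and 128 ± 15.9), Sesn3 (2.12 ± 0.203, 4.21 ± 1.70 and 2.49 ± 1.17) and the kinase inhibitor Cdkn1b (8.59 ± 0.317, 10.01 ± 0.989 and 8.47 ± 1.27; all SD, n = 3) passed in no comparison.

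Of the wider p53 pathway, a list of 62 regulators and other targets found among the rows, 53 were tested. In PBS against normal livers 9 rose and none fell (beside 11.3% of all genes). Without both libraries that stood apart 22 were called, where the calls over all 11124 tested genes also rose, from 1262 to 3168. In growth arrest and secreted targets 4 of 15 rose: Sfn, the 14-3-3 sigma protein that holds cells before mitosis (1.65, SE 0.17, adjusted p = 0.000554), Trim35 (1.11, SE 0.17, adjusted p = 0.0035), Igfbp3, a carrier of insulin-like growth factors (1.30, SE 0.21, adjusted p = 0.00525), and Klf4 (0.58, SE 0.12, adjusted p = 0.0149). Sfn passed the filter on low values only through its PBS libraries. In repair and metabolism 3 of 14 rose: Dram1, of autophagy (0.86, SE 0.16, adjusted p = 0.00978), the replication clamp Pcna (0.87, SE 0.17, adjusted p = 0.0115) and the mTORC1 inhibitor Ddit4 (0.94, SE 0.20, adjusted p = 0.0174). Of 13 apoptosis targets 1 rose, the death receptor Tnfrsf10b (0.78, SE 0.18, adjusted p = 0.0246), and of 12 regulators 1, the checkpoint kinase Chek1 (1.101, SE 0.18, adjusted p = 0.00552). Bax, the pore-forming effector of apoptosis, was at 11.8 ± 2.32, 13.5 ± 3.31 and 12.7 ± 4.40 RPKM in normal, PBS and HepLPC livers (SD, n = 3) and passed in no comparison. The cholangiocyte and stellate cell marker sums moved the same way, and their part in these changes was not tested.

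In HepLPC against PBS livers 2 of the 53 fell, beside 2.93% of all tested genes: Sfn by 1.09 (SE 0.17, adjusted p = 0.0111) and Trim35 by 0.86 (SE 0.17, adjusted p = 0.0301). The count was 1 without normal replicate 1, 2 or 3, without PBS replicate 3 or without HepLPC replicate 1. Sfn was at 0.0662, 0.0908 and 0.215 RPKM in normal, 2.33, 3.10 and 2.17 RPKM in PBS and 0.375, 0.988 and 0.644 RPKM in HepLPC libraries, with no overlap between any pair of groups. It reached 1 RPKM in the PBS libraries alone, so it entered the test only through the group where it was high. Against normal livers none of the 53 passed (0 with limma, beside 0.0809% of all). At an unadjusted p under 0.05 there were 6. The share over all genes under that rule was not counted in this comparison, so the 6 cannot be set against it. The list's median was 0.00, beside -0.52 for the 9 members and 0.05 for all tested genes. Gdf15, a secreted stress hormone, was at 7.20, 5.03 and 3.06 RPKM in normal, 2.83, 4.47 and 5.50 RPKM in PBS and 1.42, 1.246 and 2.58 RPKM in HepLPC libraries. It was named after its values were seen, because its HepLPC values, like those of Cdkn1a, lay below all others (-1.12 against normal, SE 0.29, adjusted p = 0.269).

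**Figure D4:**
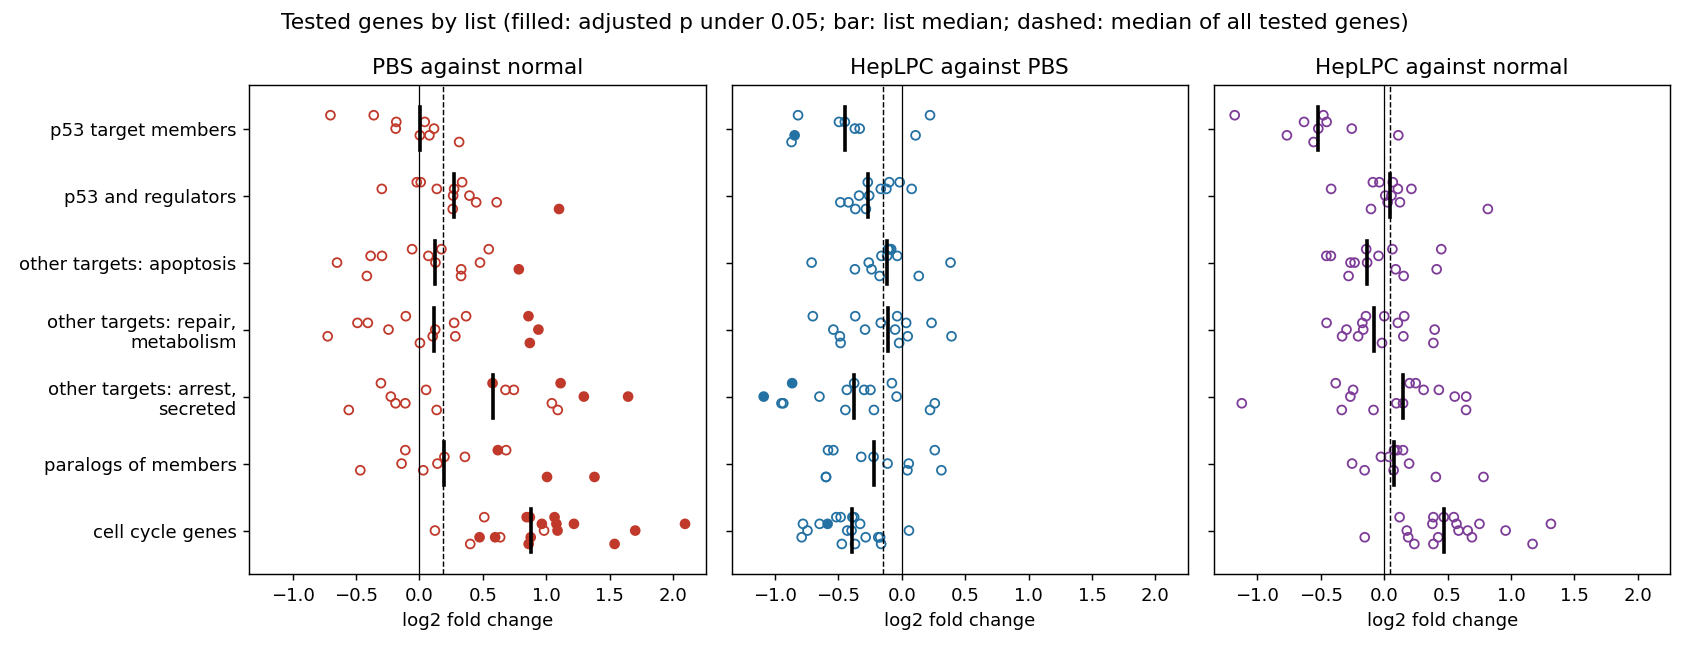
Difference of mean log2(RPKM + 1) (horizontal axis) for each tested gene of 7 lists in the 3 comparisons; filled points have a limma adjusted p under 0.05, black bars are list medians and the dashed line is the median of all tested genes. In HepLPC against normal livers the members' median is -0.52 and that of the cell cycle genes 0.47. In HepLPC against PBS livers these medians are -0.45 and -0.40.

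p21 restrains the cyclin-dependent kinases, and the genes that p53 represses through it are mostly those of the cell cycle. Pcna is on the list of these genes and is also counted among the repair and metabolism targets above. Of 19 tested cell cycle genes 14, Pcna included, rose in PBS against normal livers. Their list had a median change of 0.88, beside 11.3% called and a median of 0.18 over all tested genes. The risers with the smallest adjusted p were Cdk1, Top2a (1.70), Bub1 (0.97), Mki67 (1.22), Cdc20 (1.54) and Aurkb (1.09), all of mitosis or proliferation. Of 4 tested cyclin-dependent kinase inhibitors Cdkn3 (1.40, SE 0.20, adjusted p = 0.00234) and Cdkn2c (1.27, SE 0.28, adjusted p = 0.0181) rose there, and none passed in the other comparisons (0 with limma). At an unadjusted p under 0.05 there were 0 in HepLPC against PBS, beside 16.1% of all. There were 2 in HepLPC against normal, which cannot be set against all genes, since their share was not counted there. Cdk1, the mitotic kinase, was at 0.153, 0.174 and 0.673 RPKM in normal, 5.80, 4.87 and 3.43 RPKM in PBS and 1.57, 2.99 and 2.40 RPKM in HepLPC libraries, with no overlap between the groups (PBS against normal 2.10, SE 0.23, adjusted p = 0.000735). Of the 19, Bub1 alone fell in HepLPC against PBS livers (by 0.59, SE 0.12, adjusted p = 0.0326), where the list's median was -0.40 and that of all tested genes -0.14 (2.93% called lower). Against normal livers none passed (0 with limma, beside 0.0809% of all), and the median was 0.47, beside 0.05 over all tested genes. At an unadjusted p under 0.05 there were 13. The share over all genes under that rule was not counted in this comparison, so the 13 cannot be set against it. Cdk1 differed from normal by 1.32 in HepLPC livers (SE 0.23, limma adjusted p = 0.105) and Cdkn1a by -1.18, with neither past the threshold. Compared with PBS livers both were lower, again with neither past the threshold, and a link between the 2 genes was not tested.

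The genes whose profile over the 9 libraries was nearest to that of Cdkn1a were the unnamed LOC690147, Tmcc2, Sulf2, the unnamed LOC103690393 and Ddah1. Likeness was the root mean square difference of log2(RPKM + 1) after each gene's own mean was subtracted. It was 0.26 for LOC690147 and 0.33 to 0.36 for the others, where the SD of Cdkn1a over the libraries was 0.61. Nearest to Gadd45a were Bmp6 (0.17), Sp140 (0.23), Lurap1l (0.23), Klf11 (0.24) and Bud13 (0.24), where its SD was 0.44. Bmp6, the ligand that raises hepcidin in response to iron, was at 2.11, 2.32 and 2.57 RPKM in normal, 1.84, 2.87 and 2.80 RPKM in PBS and 1.33, 0.849 and 1.28 RPKM in HepLPC libraries, lowest in the HepLPC libraries as Gadd45a was. The 9 libraries share their groups, so this likeness describes group levels as much as single libraries.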

How the data were processed

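The authors deposited 1 RPKM value per gene and library, per the file headers. HISAT2, StringTie and the human build hg19 are listed in the submitters' processing notes, while the rows carry rat symbols, so the build behind the RPKM values is uncertain and how shared reads were handled is not stated. Whole reads were recovered from the RPKM values, within 0.01 read, for 20956 of 20959 genes detected in at least 3 libraries, and served to state depth and to compare replicates. Replicate pairs differed beyond sampling noise (chi-square per degree of freedom of at least 22.6). Genes that reached 1 RPKM in 3 libraries were tested with limma 3.58.1 in R 4.3.3 (lmFit, eBayes with trend, 2-sided) on log2(RPKM + 1), in 1 model of all 9 libraries with a term per group and 6 residual degrees of freedom. Benjamini-Hochberg adjustment ran over all 11124 tested genes, and genes were called under 0.05. This scale understates the change of low genes. A gene could pass the filter through the 3 libraries of 1 group alone. The procedure was tested on simulated data.

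The members, the lists, the alternatives and the rule for named genes were chosen with earlier results of these data known. The rule names all members, up to 6 called genes per list and comparison, 9 fixed relatives, of which 1 is not reported here, and the 5 nearest profiles to Cdkn1a and to Gadd45a. Promoter sequences are from RefSeq (GRCr8). Of the list symbols 6 matched no row, 3 others were matched by a synonym. Alternatives were a pseudocount of 0.1, no filter, rescaling by the median of ratios, a replicate block, fits of the 2 groups alone, leaving out each library, and leaving out PBS replicate 1 with HepLPC replicate 2.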

Additional observations from a re-analysis of the deposited data

How the results depend on the processing

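Members called stayed at 0 in PBS against normal and in HepLPC against normal livers under every alternative run. In HepLPC against PBS livers the 1 member called became 0 after rescaling by the median of ratios and without both libraries skewed by gene length, and 0 to 1 when 1 library was left out. Of the wider p53 pathway, 9 genes called in PBS against normal livers became 22 without both skewed libraries. The 2 called in HepLPC against PBS livers became 1 with no filter, 1 after rescaling, 0 in a fit of those 2 groups, and 1 to 3 with 1 library left out. Over all genes, the 1262 called in PBS against normal livers became 806 after rescaling, 3168 without both skewed libraries, and 562 to 1809 with 1 library left out. The 341 of HepLPC against PBS livers became 181 after rescaling, 86 in a fit of those 2 groups, and 90 to 398 with 1 library left out. The 9 of HepLPC against normal livers became 0 with no filter, 16 without both skewed libraries, and 1 to 14 with 1 library left out. The cause of these shifts was not tested.

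Of 9 same-numbered pairs of libraries, 3 had deviations correlated over 0.1 (range -0.41 to 0.31), and of 18 other pairs 8 had (range -0.47 to 0.61). The highest was between PBS replicate 1 and HepLPC replicate 2, which both stood apart by gene length. Such correlations cannot tell whether replicate numbers pair animals. With the replicate block, 787, 198 and 1 genes were called in PBS against normal, HepLPC against PBS and HepLPC against normal livers. Gadd45a was still called against PBS under the block (limma adjusted p = 0.0498).

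Alternatives for single genes were run on the members. Gadd45a against PBS, the member change that passed, kept its direction in all 15. Of the members' changes that did not pass, PBS against normal changes turned negative after rescaling for Mdm2 (-0.21), Gadd45a (-0.19), Sesn1 (-0.14) and Sesn2 (-0.25). Sesn2 also turned with a pseudocount of 0.1 (-0.0005993) and without both skewed libraries (-0.24 in PBS and -0.037 in HepLPC against normal). With 1 library left out, PBS against normal ranged from -0.13 to 0.26 for Mdm2, -0.11 to 0.20 for Gadd45a, -0.068 to 0.33 for Sesn1 and -0.24 to 0.15 for Sesn2. Sesn2 then ranged from -0.040 to 0.35 in HepLPC against PBS and from -0.037 to 0.30 in HepLPC against normal livers. Precision is limited by 3 libraries per group and 6 residual degrees of freedom.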

Other observations

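Other regulators known to act on some of the members were read from lists of their targets. Of 13 tested glucocorticoid and fasting genes none was called in any comparison (0 with limma). At an unadjusted p under 0.05 there were 2 in PBS against normal (27.3% of all) and 0 in HepLPC against PBS (16.1% of all). There was 1 in HepLPC against normal, which cannot be set against all genes, since their share was not counted there. Tsc22d3, induced by glucocorticoids, was at 7.41, 12.5 and 20.4 RPKM in normal, 57.6, 16.6 and 29.2 RPKM in PBS and 27.2, 47.0 and 11.2 RPKM in HepLPC libraries. Its highest PBS and HepLPC values were in the libraries that stood apart by gene length. Foxo3, a factor that induces several of the members, was at 4.52, 3.83 and 5.52 RPKM in normal, 1.96, 5.75 and 6.12 RPKM in PBS and 2.53, 0.448 and 2.93 RPKM in HepLPC libraries. The HepLPC values of Foxo3 lay below all normal values (limma adjusted p = 0.507) and overlapped the PBS values. Its lowest PBS and HepLPC values were in the libraries that stood apart by gene length.

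Of 10 integrated stress response genes 2 rose and 1 fell in PBS against normal livers, beside 11.3% of all tested genes called: Ppp1r15a, a relative of the Gadd45 genes in name that restarts translation (0.76), and Asns (0.83) rose, and the hormone Fgf21 fell by 1.24 (limma adjusted p = 0.0139, 0.0457 and 0.0291). Ppp1r15a fell in HepLPC against PBS livers (by 0.69, adjusted p = 0.0468). Of 8 tested immediate early genes Egr1 rose in PBS against normal livers (1.61, adjusted p = 0.0156). All 8 had a negative change in HepLPC against PBS livers, from -1.02 for Jun to -0.40 for Zfp36, beside a median of -0.14 for all tested genes. None passed (0 with limma, beside 3.07% of all, and 5 at an unadjusted p under 0.05, beside 16.1% of all). Tsc22d3, Foxo3, Jun and Zfp36 were named after their values were seen.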
